A study of Mus musculus with 38 samples.

Results

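The levels of 10 mouse genes that mark macrophages or encode the complement protein C1q were examined in the tissue around B16 melanomas, a mouse skin tumor line, and in control tissue. The genes were chosen by name: the receptor genes Csf1r, Ccr2, Trem2, Cd163 and Adgre1, the lysozyme genes Lyz1 and Lyz2, and C1qa, C1qb and C1qc. All 10 were measured, by 16 probes, among 9890 genes tested on 38 Illumina bead arrays. Adgre1 and Lyz1 had 3 probes each, Csf1r and Lyz2 had 2 each, and the other genes had 1 each. Each gene was represented by its brightest probe, and levels are log2 of the background-corrected, quantile-normalised intensity.

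All mice were C57BL/6, aged 8 weeks. The tumor groups were the microenvironment of the unmodified line B16-WT at day 4 (4 arrays) and day 14 (5 arrays), of B16-shTGFb at day 4 (6 arrays) and day 14 (5 arrays), and of B16-shVEGF at day 4 (5 arrays) and day 14 (6 arrays), with days counted from tumor inoculation. The control group was control tissue (7 arrays), for which the labels name no organ. By their names, the 2 modified lines carry short hairpin RNAs against TGF-beta and VEGF. The sources used here describe no line with a control hairpin, so a modified line differs from B16-WT by its hairpin and by having been modified at all. They also do not say whether 1 array stands for 1 animal, so the p-values measure the spread between these arrays, which may be in part technical.

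Macrophages in skin and tumors come from resident cells seeded early in life and from blood monocytes. Monocytes leave the bone marrow and enter inflamed tissue through the chemokine receptor CCR2, and macrophages depend on signals through the receptor CSF1R for survival. Mature tissue macrophages are the main source of C1q, the recognition part of the classical complement pathway, whose A, B and C chains are encoded by neighbouring genes and assembled together. In bulk tissue, fewer macrophages and less RNA per macrophage cannot be told apart.

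Of the 38 arrays, 3 stood apart from the rest for these genes: array 4 of WT day 4 and arrays 2 and 5 of WT day 14, called here the 3 host-poor arrays. On them, 2, 1 and 1 of the 10 genes were detected (detection p under 0.05), against 9 or 10 on each of the other 35 arrays. The log2 of the summed intensity of the 10 genes lay between 8.18 and 8.80 on the 3 arrays and between 14.74 and 16.22 on the other 35. Other cell types moved with them. The 7 fibroblast and matrix genes had summed levels of 7.63 to 8.50 on the 3 arrays, against 13.66 to 16.08 on the other 35, and the 5 keratinocyte genes had 6.87 to 8.17, against 10.76 to 16.15. The 5 skeletal muscle genes had 7.93 to 8.31 on the 3 arrays, against 11.99 to 16.57 on the other 35. Dcn, the matrix proteoglycan decorin, was not detected on any of the 3, at 4.38, 4.67 and 4.87, against 12.35 to 14.45 on the other 35. All 7 pigment cell genes were detected on the 3 arrays, with a summed level of 16.02 to 16.20, against 9.08 to 16.39 on the other 35. In control tissue alone this level ran from 9.35 to 16.32, so it reached above that of the 3 arrays. Between 16519 and 22897 of the 45272 probes were detected per array, and the 3 arrays had 17136, 17669 and 16519. Among the other 35, array 5 of shVEGF day 4 had the fewest, 17291, which lies within the range of the 3.

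**Figure D1:**
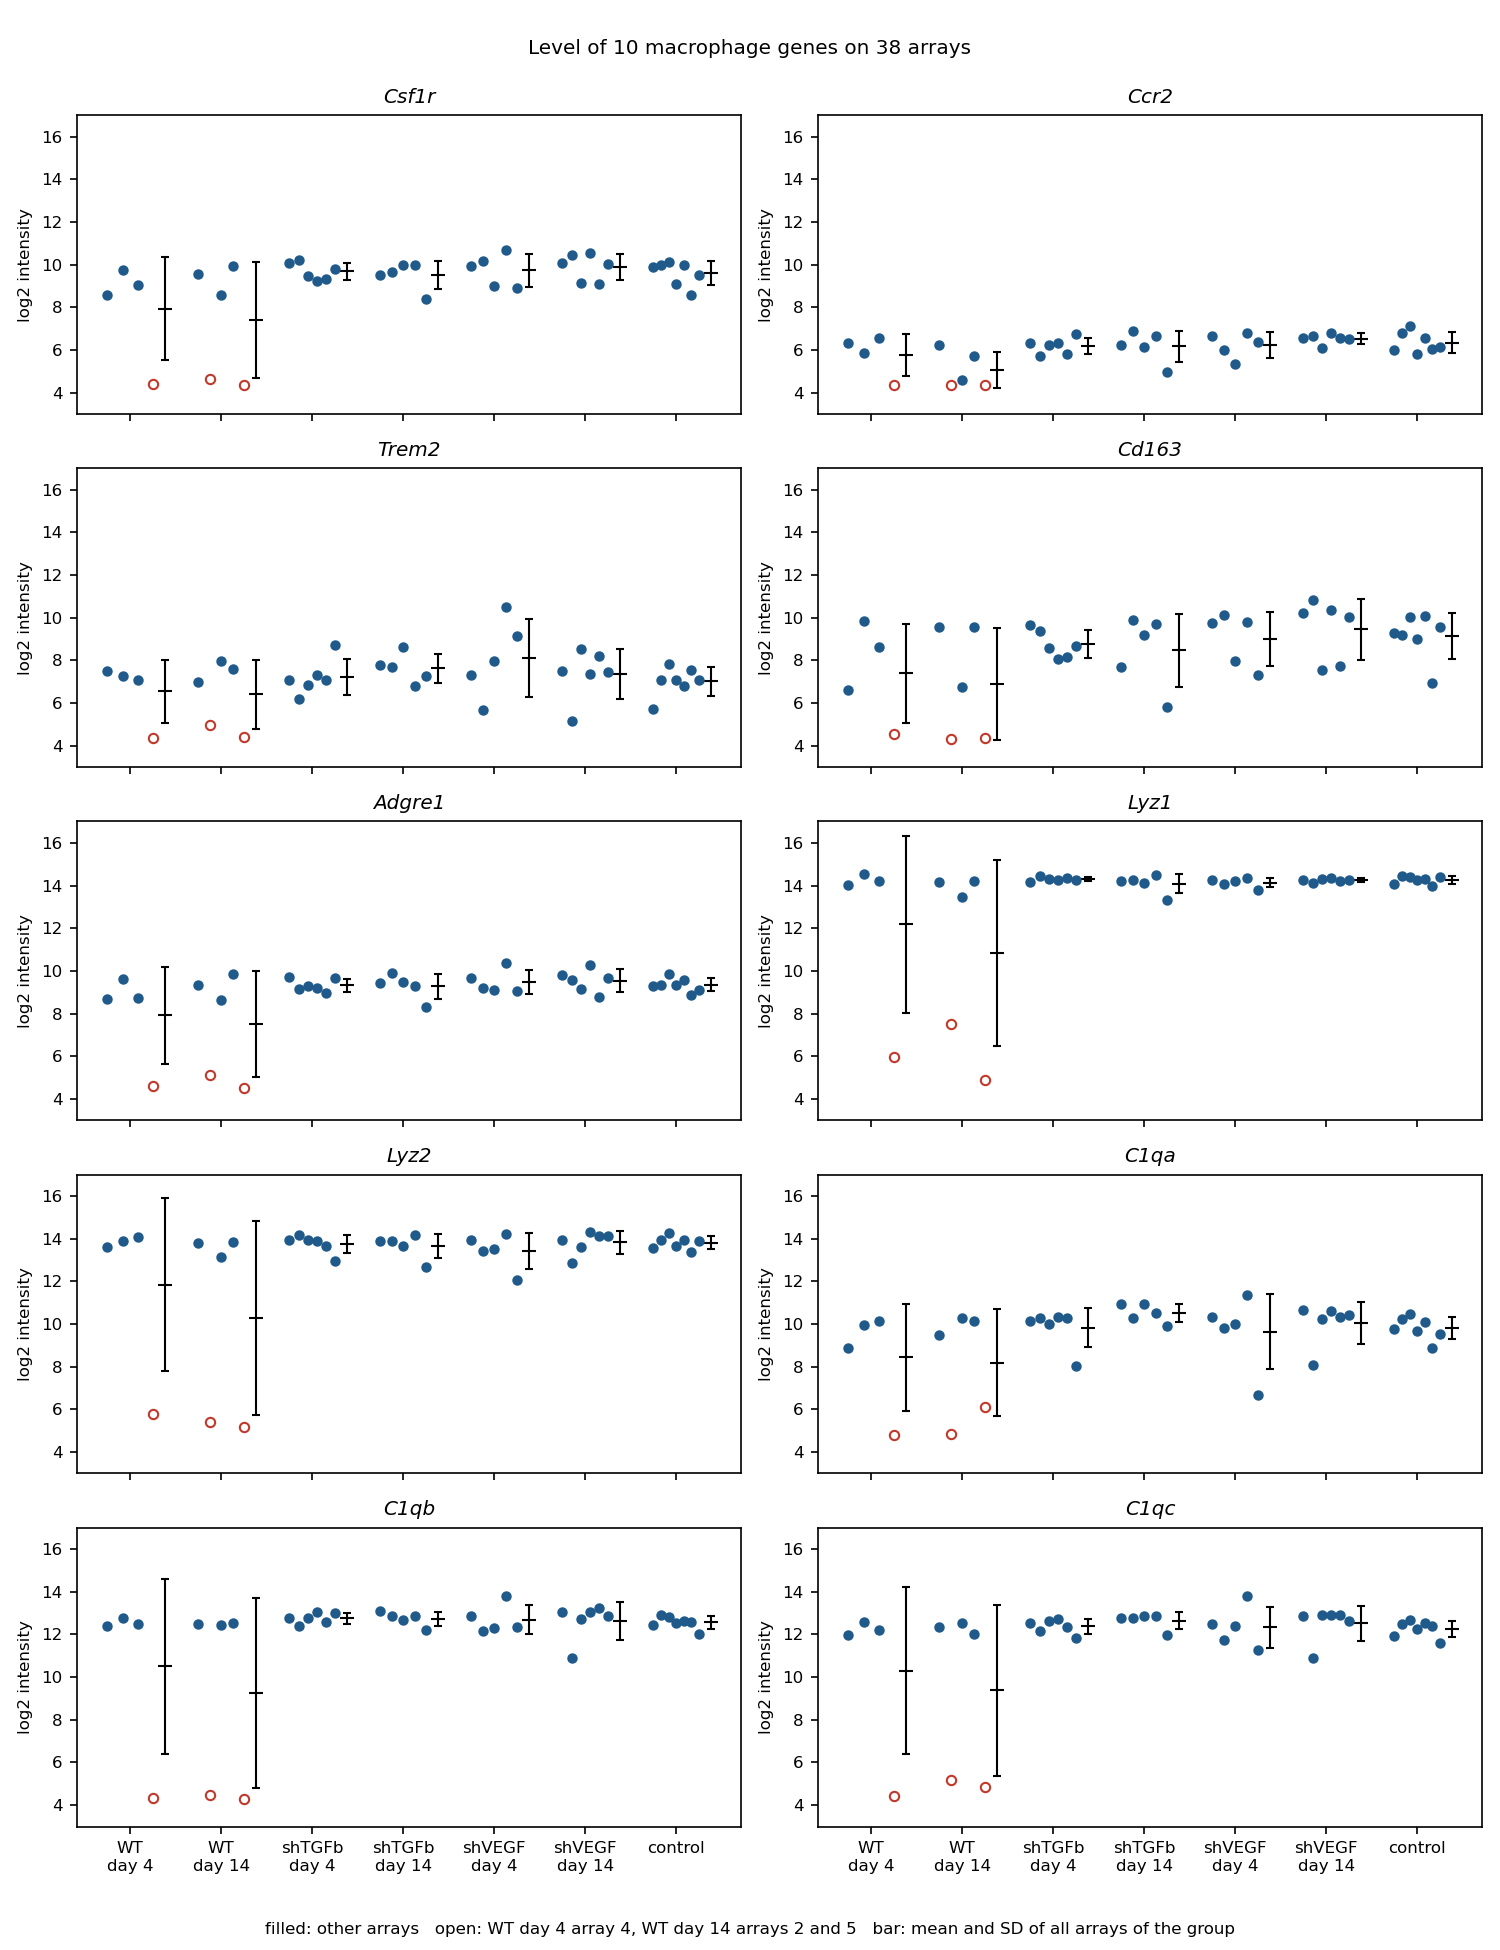
Level (log2 intensity) of each of the 10 genes on every array, by group from the tumor groups to control. Points are arrays, open points are the 3 host-poor arrays, and bars give the mean and SD over all arrays of the group; the 3 open points lie under every filled point in each panel, by 0.18 (Trem2) to 6.39 (C1qb).

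The comparison of each tumor group with control asks how the tissue around the tumor differs from tissue without one. With all arrays, the means of all 10 genes were lower in WT day 14 than in control, with a median log2 difference of -2.21 and a range from -3.52 (Lyz2) to -0.61 (Trem2). Over all 9890 genes the median was 0.04. None of the 10 genes was called, and neither was any other gene (0% of those tested at an adjusted p under 0.05, limma with Benjamini-Hochberg adjustment over all genes, two-sided). The smallest adjusted p among the 10 was 0.143. At an unadjusted p under 0.05, 8 of the 10 were lower in WT day 14, while 16.8% of all genes were lower and 25.1% differed either way. In each of the 10 genes the range of the WT day 14 arrays overlapped that of control.

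Without the host-poor arrays the median difference shrank, by the brightest probe of each gene. The median of the 10 genes in WT day 14 minus control was then -0.13, with 7 genes lower and 3 higher, and again no gene was called (0%). Ccr2 alone stayed under an unadjusted p of 0.05 (difference -0.83 ± 0.35 SE, unadjusted p = 0.0245, adjusted p = 1.00, limma), while 0.829% of all genes did so. C1qb differed by -3.31 ± 1.18 (SE) with all arrays and by -0.06 ± 0.34 without the 3. Without WT day 14 array 1, 8 of the 10 genes were called lower than control, with 14.6% of all genes called; without array 4 the same 8 genes were called, with 13% of all genes. The 8 were Adgre1, Csf1r, Lyz1, Lyz2, Ccr2, Cd163, C1qb and C1qc, and in both fits the host-poor arrays made up 2 of the 4 remaining WT day 14 arrays.

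WT day 4 held 1 host-poor array. With all arrays all 10 means were lower than in control, with a median difference of -1.71, and 1 of the 10 (Csf1r, unadjusted p = 0.0481, adjusted p = 0.725, limma) passed an unadjusted p of 0.05, as did 1.97% of all genes. None was called, as was no other gene (0%). Without the 3 host-poor arrays the median was -0.06, with 8 genes lower and 2 higher, and none of the 10 passed an unadjusted p of 0.05 (0.0506% of all genes). C1qb then averaged 12.56 ± 0.19 in WT day 4 (SD, n = 3) and 12.56 ± 0.29 in control (SD, n = 7).

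The 4 groups of the modified lines held no host-poor array. The median difference from control was 0.03 in shTGFb day 4, -0.08 in shTGFb day 14, -0.03 in shVEGF day 4 and 0.22 in shVEGF day 14. None of the 10 genes was called or passed an unadjusted p of 0.05 in these 4 comparisons. Of all genes, 0% were called in each by limma, and 2.99%, 1.26%, 1.08% and 0.222% passed the unadjusted threshold in the same order of groups. The differences farthest from 0 were Trem2 in shVEGF day 4 (1.10, 95% interval -0.28 to 2.48), C1qa in shTGFb day 14 (0.71, -0.98 to 2.41) and Cd163 in shTGFb day 14 (-0.68, -2.54 to 1.17). The 3 intervals hold 0 and reach past 1 log2 unit on at least 1 side, so these data leave such differences possible.

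The comparison of each modified line with B16-WT on the same day asks how the tissue differs when the tumor cells carry the hairpin. At day 14 all 10 means were higher in shTGFb than in WT, with a median difference of 2.22, and 8 of the 10 passed an unadjusted p of 0.05, against 7.66% of all genes higher. In shVEGF day 14 all 10 were also higher than in WT day 14, with a median of 2.51, and 9 passed the unadjusted threshold, against 16.6% of all genes higher. Neither comparison called a gene by limma (0% of all genes in both). The smallest adjusted p among the 10 was 0.326 for shTGFb and 0.140 for shVEGF. Both comparisons share the same 5 WT arrays, 2 of them host-poor. Without the 3 host-poor arrays the medians were 0.15 for shTGFb and 0.24 for shVEGF. In that fit Ccr2 in shVEGF was the 1 gene of the 10 under an unadjusted p of 0.05 in either comparison, against 0.243% of all genes for shTGFb and 1.25% for shVEGF. Without WT day 14 array 1 or without array 4, 8 of the 10 genes were called higher in shVEGF day 14 than in WT day 14, with 12.5% and 16.5% of all genes called; they were the same 8 genes as above.

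At day 4 all 10 means were again higher than in WT in both modified lines, with medians of 1.58 for shTGFb and 1.59 for shVEGF. Csf1r was the 1 gene of the 10 under an unadjusted p of 0.05 in each, against 8.2% of all genes for shTGFb and 2.53% for shVEGF, and 0% of all genes were called. Without the 3 host-poor arrays these medians were 0.15 and 0.11. The days were also compared within each line. WT day 14 minus WT day 4 had a median of -0.63 over the 10 genes with all arrays and 0.14 without the 3. In shTGFb and shVEGF the day 14 minus day 4 medians were -0.04 and 0.18. The change between days of the difference from WT had medians of 0.82 for shTGFb and 0.98 for shVEGF with all arrays, and 0.13 and 0.12 without the 3. In these 5 comparisons none of the 10 genes was called or passed an unadjusted p of 0.05 with all arrays, and 0% of all genes were called. The unadjusted threshold was passed by 0.637%, 4.86% and 0.617% of all genes between the days in WT, shTGFb and shVEGF, and by 1.39% and 1.02% in the change between days for shTGFb and shVEGF.

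**Figure D2:**
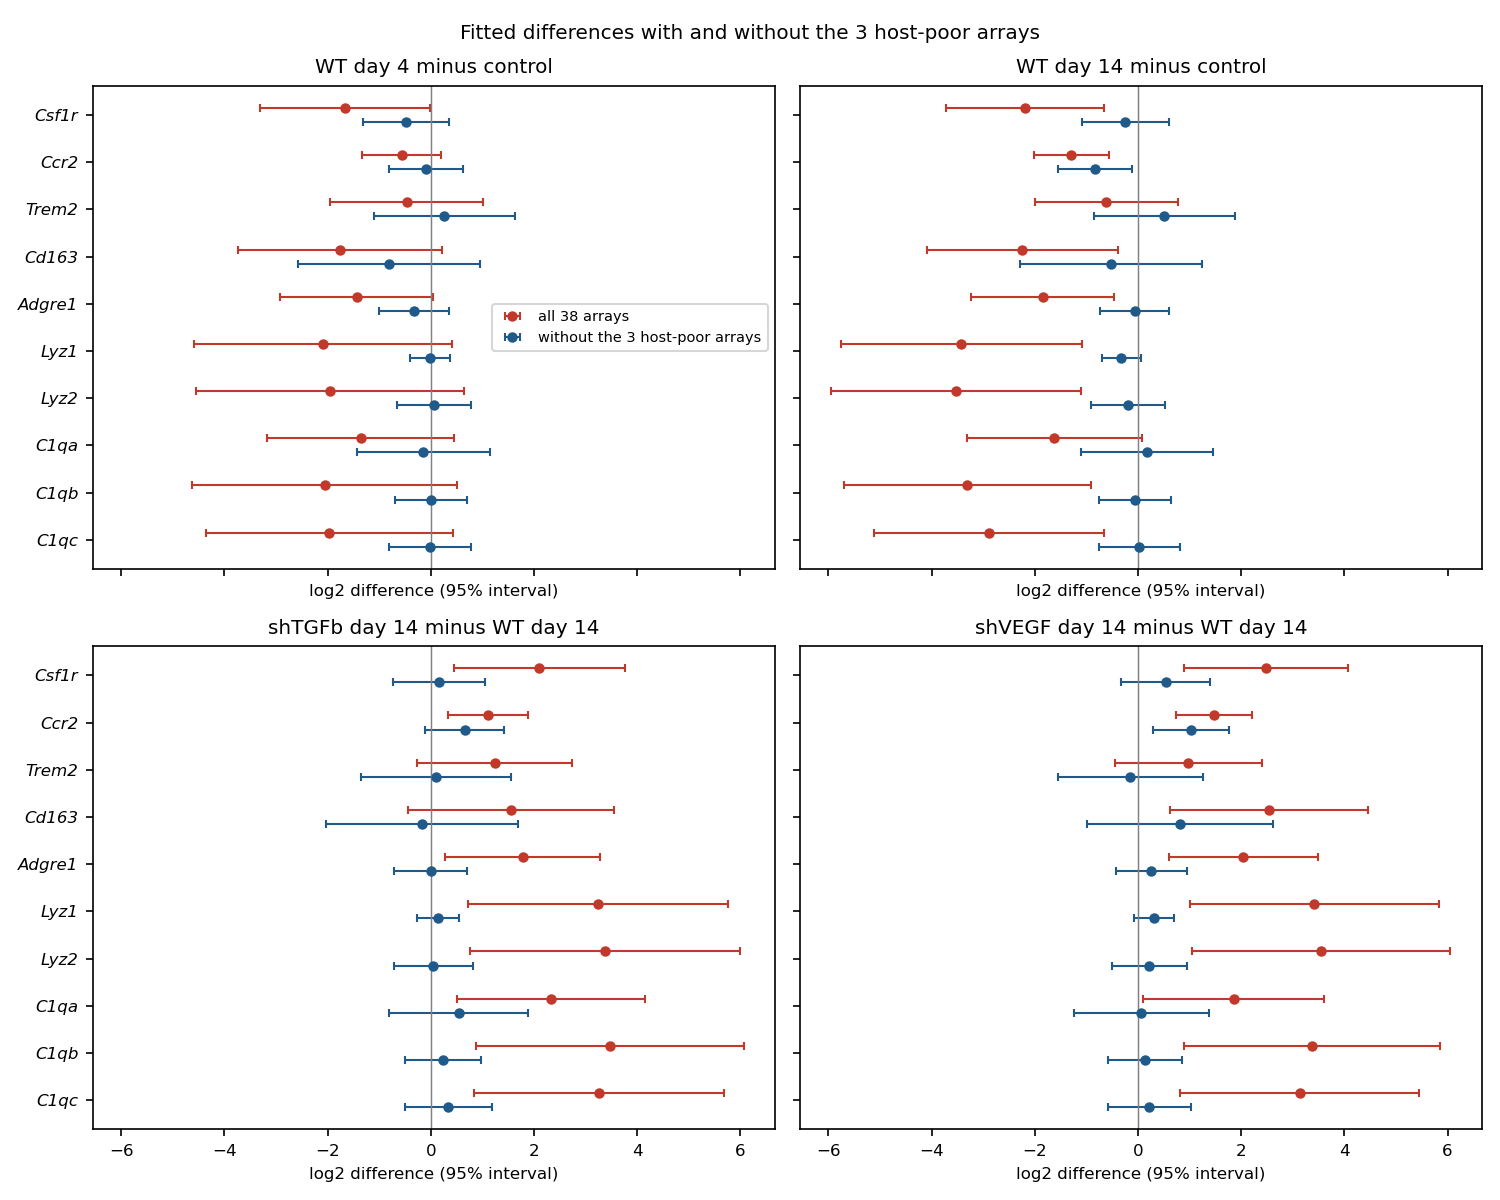
Log2 difference with its 95% interval for each gene in 4 comparisons, with all 38 arrays (red) and without the 3 host-poor arrays (blue). With all arrays the points lie to the left of 0 in both comparisons of WT with control and to the right of 0 in both comparisons with WT day 14; without the 3 arrays the interval of every gene but Ccr2 holds 0 in these 4 comparisons.

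Csf1r encodes the receptor for the macrophage growth factors CSF1 and IL-34. In WT day 4 its level was 8.56, 9.74, 9.06 and, on the host-poor array 4, 4.40. In WT day 14 it was 9.55, 8.58 and 9.93 on arrays 1, 3 and 4, and 4.63 and 4.35 on the host-poor arrays 2 and 5. In control it ran from 8.58 over a median of 9.91 to 10.12. Apart from the 3 arrays, the ranges of the groups overlapped, and the lowest of the 35 values was 8.40 in shTGFb day 14 (array 5). Of its ligands, Csf1 was detected on all 38 arrays, including the 3 host-poor ones at 8.52, 8.46 and 6.33, against 5.98 to 7.66 on the other 35. Il34, the ligand made mainly by keratinocytes in skin, was not detected on the 3 (4.40, 4.43 and 4.71) and had a median of 7.59 on the other 35. On 2 of the host-poor arrays Csf1 was thus above its highest level on the other 35, while its receptor was not detected there.

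Ccr2, the receptor through which monocytes enter tissue, had a median of 6.32 over the 35 arrays and was undetected on 2 of them. Its level was 6.33, 5.88, 6.55 and 4.38 on arrays 1 to 4 of WT day 4. It was 6.22, 4.38, 4.62, 5.71 and 4.38 on arrays 1 to 5 of WT day 14. In shVEGF day 14 it ran from 6.09 over a median of 6.58 to 6.79, and in control from 5.81 over a median of 6.15 to 7.12. WT day 14 thus held a low value besides its host-poor arrays, on array 3, where Ccr2 was not detected. The difference of shVEGF day 14 from WT day 14 was 1.47 ± 0.37 (SE) with all arrays and 1.02 ± 0.36 without the 3 (unadjusted p = 0.00828, adjusted p = 0.997, limma). The second undetected value, 4.97, was on shTGFb day 14 array 5. Of 4 ligand genes of this receptor, 2 were measured. Ccl7 was not detected on the 3 host-poor arrays (5.04, 5.47 and 5.13, against 8.87 to 12.01 on the other 35), while Ccl2 was detected on 2 of the 3 (6.12, 8.06 and 4.50, against 5.14 to 8.75).

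Trem2 encodes a lipid-sensing receptor of macrophages that signals through the adaptor Tyrobp. Its levels in shVEGF day 4 were 7.32, 5.68, 7.97, 10.49 and 9.15 on arrays 1 to 5. In WT day 4 they were 7.50, 7.28, 7.06 and 4.36, in WT day 14 they were 7.01, 5.00, 7.98, 7.61 and 4.43, and in control they ran from 5.73 over a median of 7.08 to 7.82. The spread in shVEGF day 4 (SD 1.82, n = 5) was thus wide, with array 4 the highest of all 38 arrays, while the lowest of the 35 was array 2 of shVEGF day 14 at 5.17. Over the 35 arrays the SD of Trem2 was 0.98, larger than that of 89.3% of all genes. Tyrobp was undetected on the 3 host-poor arrays (4.88, 5.19 and 4.74, against 7.83 to 10.41 on the other 35). Apoe, a ligand of this receptor that many cell types make, was detected on all 38 arrays, at 10.60 to 11.91 on the 3 and 11.33 to 13.51 on the other 35.

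Cd163, the scavenger receptor for haptoglobin-bound haemoglobin, had the largest SD of the 10 genes outside the host-poor arrays, by the brightest probe of each. Its SD over the 35 arrays was 1.24, larger than that of 94.7% of all genes, though its range (5.02) was under that of Trem2 (5.32). In WT day 4 its levels were 6.61, 9.84, 8.61 and 4.53 on arrays 1 to 4, and in WT day 14 they were 9.58, 4.30, 6.76, 9.58 and 4.37 on arrays 1 to 5. In shTGFb day 14 they were 7.71, 9.89, 9.21, 9.73 and 5.82 on arrays 1 to 5. In control they ran from 6.92 (array 6) over a median of 9.29 to 10.08. Low values were spread over the groups: 11 of the 35 arrays lay more than 1 log2 unit under the median. The haptoglobin gene Hp was undetected on the 3 host-poor arrays (5.34, 5.54 and 4.85, against 10.32 to 13.77 on the other 35), while Hmox1, which breaks down heme, and the ferritin gene Fth1 were detected on all 38.

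Adgre1 encodes F4/80, the classical surface marker of mouse macrophages. It was 8.68, 9.63, 8.75 and 4.59 on arrays 1 to 4 of WT day 4, and 9.35, 5.13, 8.63, 9.87 and 4.53 on arrays 1 to 5 of WT day 14. In control it ran from 8.89 over a median of 9.35 to 9.87. Without the host-poor arrays the mean was 9.28 ± 0.63 in WT day 14 (SD, n = 3) and 9.35 ± 0.31 in control (SD, n = 7), a difference smaller than the spread of either group. The modified lines had 9.33 ± 0.30 in shTGFb day 4 (n = 6), 9.28 ± 0.60 in shTGFb day 14 (n = 5), 9.48 ± 0.55 in shVEGF day 4 (n = 5) and 9.54 ± 0.53 in shVEGF day 14 (n = 6). Single arrays stood at the ends. Array 5 of shTGFb day 14 was the lowest of the 35 for Adgre1 (8.29), Csf1r (8.40), Cd163 (5.82) and Lyz1 (13.34), and array 4 of shVEGF day 4 was the highest for Adgre1 (10.38) and Csf1r (10.69). When the 7 groups were ordered by their means, no step between neighbours exceeded the SDs of both groups for any of the 10 genes, with all arrays or without the 3.

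The lysozyme genes Lyz1 and Lyz2 encode enzymes that cut bacterial cell walls; Lyz2 is the myeloid form, and Lyz1 is known best from Paneth cells of the gut. The brightest Lyz1 probe had a median of 14.24 over the 35 arrays, with an SD of 0.25, smaller than that of all but 5.84% of genes. On the same 35 arrays between 14 and 274 of the 45272 probes had a higher raw signal, against 16289, 10983 and 23339 on the 3 host-poor arrays. Its levels were 14.02, 14.53, 14.22 and 5.97 on arrays 1 to 4 of WT day 4, and 14.18, 7.52, 13.48, 14.19 and 4.87 on arrays 1 to 5 of WT day 14, against 13.97 to 14.45 in control. The other Lyz1 probes were dimmer and wider in spread, with SDs of 1.12 and 1.21 over the 35 arrays, and correlated with the bright one at r = 0.81 and r = 0.76 as a description over these arrays. Lyz2 was 13.62, 13.91, 14.06 and 5.80 in WT day 4 and 13.79, 5.42, 13.16, 13.85 and 5.16 in WT day 14, in array order, against 13.37 to 14.29 in control. Array 3 of WT day 14, which was not host-poor, lay under the control range for both genes, at 13.48 for Lyz1 and 13.16 for Lyz2. Its dimmer probes lay further under, at 8.16 and 5.70 for Lyz1, against at least 9.51 and 7.01 in control, and at 8.14 for Lyz2, against 8.83 to 10.82 in control. Whether the probes of one lysozyme gene also bind the RNA of the other was not tested, since the files used here give no probe sequences.

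The start regions of the lysozyme genes show how alike the pair is. Both lie on the minus strand of chromosome 10, and the RefSeq windows of GRCm38.p6, from 250 bases before to 50 bases after the start, cover chr10:117292819-117293118 (Lyz1) and chr10:117282223-117282522 (Lyz2). A global alignment paired 249 identical bases over 302 positions (82.5%), with 49 mismatches and 4 gap positions. Capitals mark the bases that differ between the windows, and the longest stretch without a difference, 86 bases, spans the start. The lines run 5′ to 3′.
Lyz1: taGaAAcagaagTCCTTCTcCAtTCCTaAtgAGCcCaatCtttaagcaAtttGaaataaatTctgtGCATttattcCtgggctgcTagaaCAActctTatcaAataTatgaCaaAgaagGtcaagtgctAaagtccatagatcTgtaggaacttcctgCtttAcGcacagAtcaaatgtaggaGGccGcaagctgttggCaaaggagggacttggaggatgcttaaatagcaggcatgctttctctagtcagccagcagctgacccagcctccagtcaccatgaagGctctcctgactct
Lyz2: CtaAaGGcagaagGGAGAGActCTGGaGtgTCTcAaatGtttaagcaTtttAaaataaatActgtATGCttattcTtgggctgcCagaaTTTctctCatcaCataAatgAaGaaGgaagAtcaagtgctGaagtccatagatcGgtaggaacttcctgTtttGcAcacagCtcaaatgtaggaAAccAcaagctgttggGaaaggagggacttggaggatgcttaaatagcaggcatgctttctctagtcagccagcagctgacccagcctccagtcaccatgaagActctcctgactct

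C1qa, C1qb and C1qc encode the chains of C1q. C1qb was 12.40, 12.77, 12.51 and 4.35 on arrays 1 to 4 of WT day 4, and 12.49, 4.49, 12.46, 12.53 and 4.29 on arrays 1 to 5 of WT day 14. In control it ran from 12.01 over a median of 12.60 to 12.91. The 3 host-poor arrays were undetected for C1qb, and the other 6 WT arrays lay within the range of control. C1qc followed it, with 11.98, 12.56, 12.21 and 4.45 in WT day 4 and 12.34, 5.18, 12.53, 12.03 and 4.84 in WT day 14, in array order, against 11.62 to 12.68 in control. C1qa was more spread over the 35 arrays (SD 0.90, against 0.46 for C1qb and 0.54 for C1qc), with 8.86, 9.97, 10.15 and 4.79 in WT day 4 and 9.49, 4.87, 10.30, 10.15 and 6.12 in WT day 14, against 8.87 to 10.46 in control. C1qa was detected on 1 of the 3 host-poor arrays, WT day 14 array 5.

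Single arrays of shVEGF held the highest and lowest levels of the 3 chains among the 35 arrays. Array 4 of shVEGF day 4 was the highest for each, with 11.36 for C1qa, 13.79 for C1qb and 13.79 for C1qc, and it was also the highest for Trem2. Array 2 of shVEGF day 14 was the lowest for C1qb and C1qc, at 10.88 and 10.88, and had 8.06 for C1qa. The lowest C1qa, 6.67, was on array 5 of shVEGF day 4, where C1qb was 12.36, near its median of 12.65. Array 6 of shTGFb day 4 was alike, with 8.01 for C1qa and 12.98 for C1qb. On these 2 arrays C1qa was low while C1qb was not. They had 17291 and 20025 probes detected, and 17291 was the fewest of the 35.

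**Figure D3:**
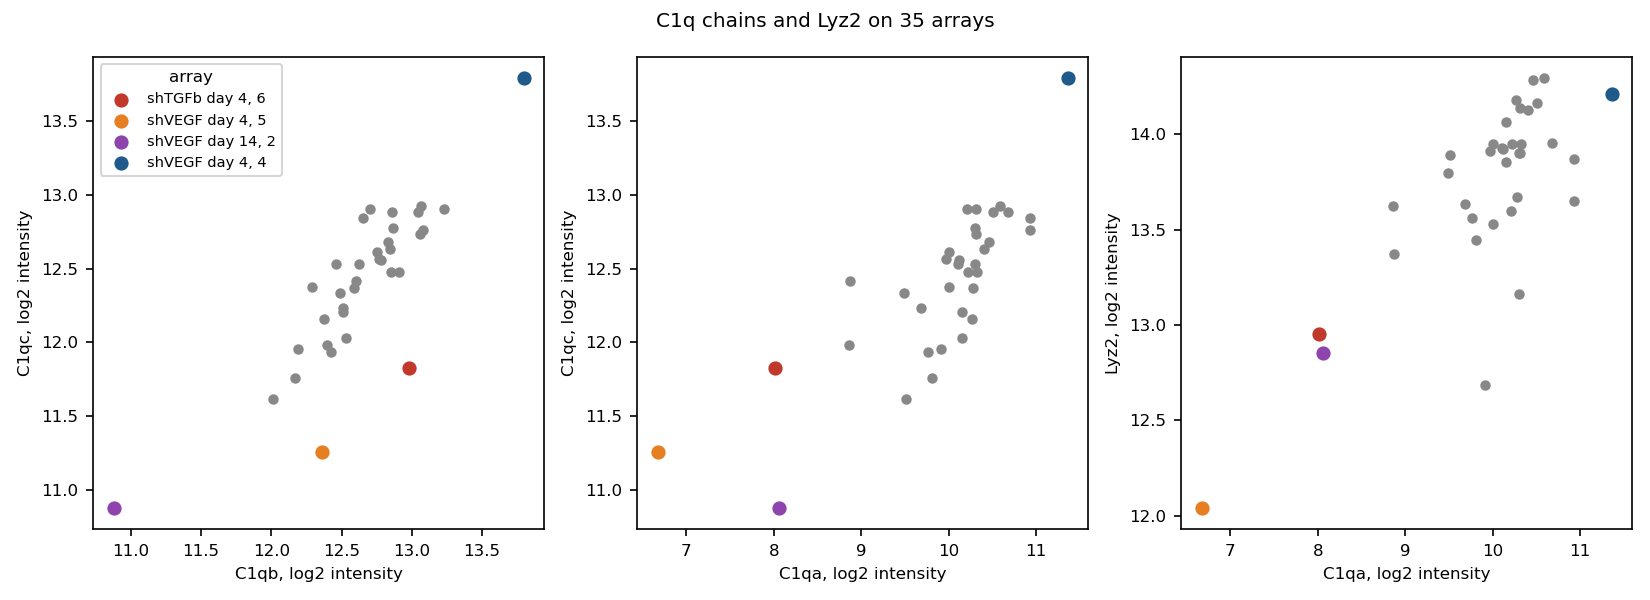
Levels (log2 intensity) of C1qc against C1qb, C1qc against C1qa, and Lyz2 against C1qa on the 35 arrays without the host-poor ones; each point is an array, and 4 arrays are coloured. Array 5 of shVEGF day 4 and array 6 of shTGFb day 4 have a lower C1qc, at 11.26 and 11.83, than the arrays with a like C1qb, and lie at the low end of C1qa, at 6.67 and 8.01.

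Promoter windows of C1qb and C1qc are shown because C1qb and C1qc were among the most closely related pairs of the 10 genes. RefSeq windows were found for 7 of the 10 genes (C1qb, C1qc, Cd163, Ccr2, Lyz1, Lyz2 and Trem2). PU.1, the product of Spi1, is a transcription factor of the myeloid lineage whose core motif GAGGAA was searched on both strands. It occurred in 3 of the 7 windows, those of C1qb, C1qc and Trem2, and in 28.3% of 32851 windows of the same length. Capitals mark the match, which reads as TTCCTC where it lies on the opposite strand. The windows are chr4:136886151-136886450 (C1qb) and chr4:136892865-136893164 (C1qc) of GRCm38.p6, both on the minus strand and written 5′ to 3′.
C1qb: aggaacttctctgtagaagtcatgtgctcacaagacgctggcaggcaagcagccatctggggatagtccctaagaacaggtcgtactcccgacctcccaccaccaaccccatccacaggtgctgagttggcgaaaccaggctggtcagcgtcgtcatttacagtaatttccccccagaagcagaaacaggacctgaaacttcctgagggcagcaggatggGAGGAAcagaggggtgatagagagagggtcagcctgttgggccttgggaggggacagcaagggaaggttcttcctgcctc
C1qc: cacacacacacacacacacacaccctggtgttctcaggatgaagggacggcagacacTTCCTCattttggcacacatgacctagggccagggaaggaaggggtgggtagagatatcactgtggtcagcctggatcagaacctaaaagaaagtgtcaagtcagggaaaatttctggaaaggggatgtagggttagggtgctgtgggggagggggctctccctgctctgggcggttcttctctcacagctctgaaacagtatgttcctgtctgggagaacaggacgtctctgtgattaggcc

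Other genes of the complement pathway were measured in part, with 4 of 12 listed genes. Serping1, the C1 inhibitor made by many stromal cells, was undetected on the 3 host-poor arrays (4.46, 4.61 and 4.68, against 11.61 to 13.73 on the other 35). C1s1, a protease of the C1 complex, was detected on all 38 arrays, at 6.97, 6.65 and 6.75 on the 3 and 5.80 to 9.72 on the other 35. Serping1 differed by -3.54 ± 1.19 (SE) between WT day 14 and control with all arrays (adjusted p = 0.143, limma) and by -0.30 ± 0.41 without the 3. In the list, 0 of 4 genes were called in either fit.

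Of 30 further macrophage genes 26 were measured, and none was called by limma in WT day 14 against control. With all arrays 23 were lower and 3 higher, with a median of -1.39. Without the 3 host-poor arrays 22 were lower and 4 higher, with a median of -0.21, against a median of -0.04 over all genes. On the host-poor arrays between 5 and 8 of the 26 were detected, against 20 to 26 on the others. The 4 genes detected on all 3 were Lgals3, Mertk, Sirpa and Stab1, and none of these is made by macrophages alone. Sirpa, the CD47 receptor, was at 12.41, 12.84 and 12.82 on the 3, against 11.40 to 12.58 on the other 35, and Stab1 was at 11.23, 10.62 and 11.37, against 8.72 to 10.55. The mannose receptor gene Mrc1 was at 4.56, 5.80 and 4.56, against 10.56 to 13.37. Most of the further macrophage genes were thus near background on the 3 arrays, as the 10 genes were.

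Correlations between the 10 genes over the 35 other arrays were computed for 45 pairs with 100000 permutations each, and p-values were adjusted over the 45. Of these, 40 (88.9%) were positive, as were 50.3% of all pairs of the 9890 genes over the same arrays. An adjusted p under 0.05 was reached by 24, of which the lowest r was 0.38. An r of at least that value was held by 53.3% of the 45 pairs and by 19.7% of all gene pairs. The closest pairs were Csf1r with Cd163 (Pearson r = 0.90, Spearman rho = 0.86), C1qb with C1qc (r = 0.85, rho = 0.80), Adgre1 with Csf1r (r = 0.83, rho = 0.76), C1qa with C1qc (r = 0.80, rho = 0.82) and Adgre1 with Cd163 (r = 0.78, rho = 0.77), each with a permutation p of 1e-05 for r, the smallest the permutations can give, and an adjusted p of 7.5e-05. Without the 2 arrays farthest from the median of the first gene these r were 0.87, 0.73, 0.78, 0.81 and 0.76. Cd163 with C1qb had r = 0.01 (permutation p = 0.95, adjusted p = 0.97), and Trem2 with Cd163 had r = -0.31 (permutation p = 0.068, adjusted p = 0.098). The pair of Trem2 and C1qb (r = 0.62, permutation p = 0.00044, adjusted p = 0.0015) had r = 0.29 without the 2 arrays farthest from the Trem2 median. Its rank correlation over all 35 was rho = 0.39 (permutation p = 0.023, adjusted p = 0.035). Other pairs of the 24 also fell without the 2 farthest arrays, such as Lyz1 with Ccr2 (r from 0.595 to 0.15) and Trem2 with C1qc (0.49 to 0.11). Adgre1 with C1qb went from 0.39 to 0.21, while Lyz2 with C1qa stayed near its value (0.78 to 0.72). Arrays of 7 groups are pooled in these values, and within-group values were not computed.

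**Figure D4:**
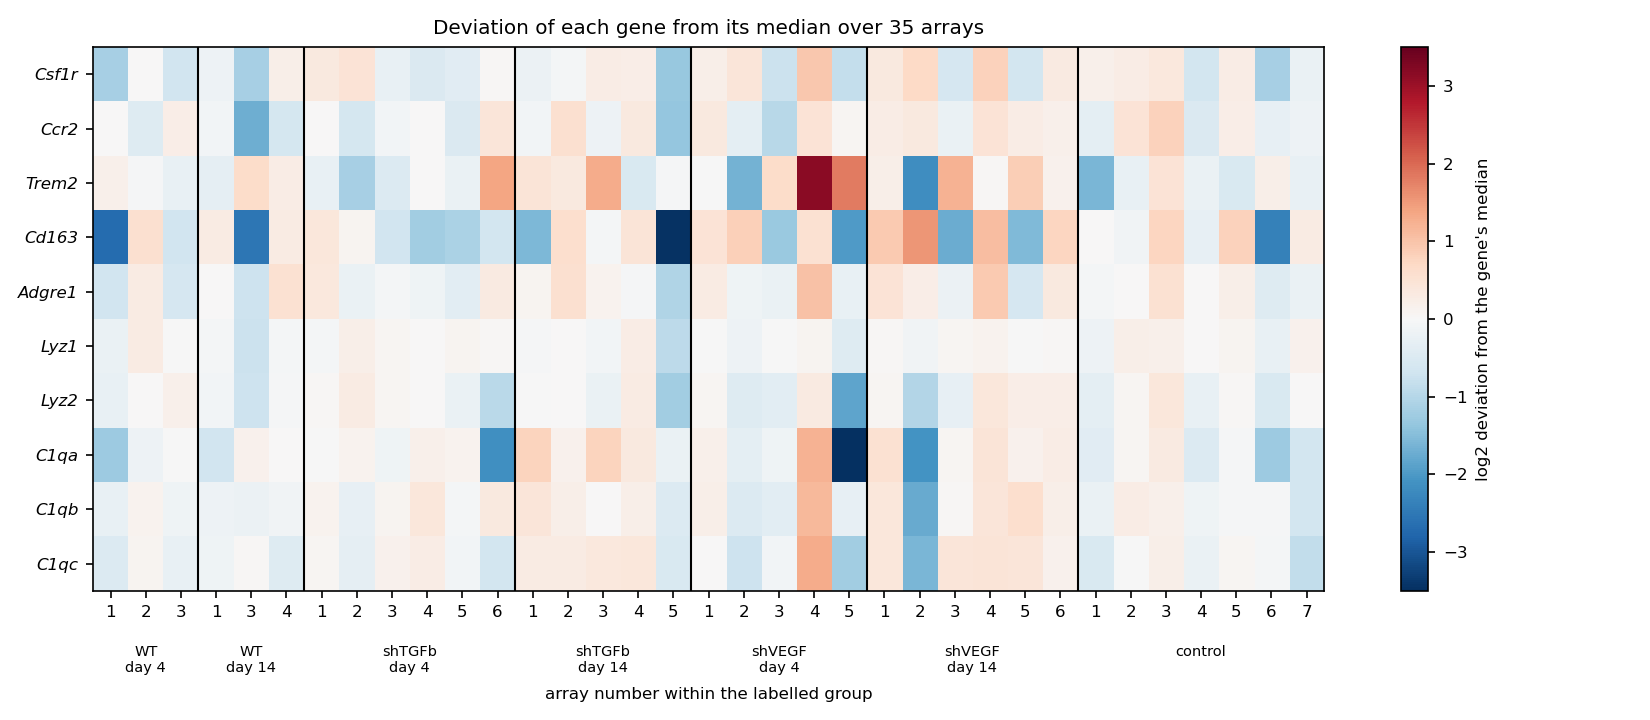
Deviation (log2) of each gene (rows) from its median over the 35 arrays without the host-poor ones (columns, by group). Red is above and blue under the median; the Cd163 row has 11 arrays more than 1 unit under the median, and the Lyz1 row has none.

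The 3 genes of all 9890 closest to each of the 10, by Pearson r over the same 35 arrays, were chosen with no test. Cd163 was closest to Cd209d (r = 0.95), Slco2b1 (r = 0.94) and Clmp (r = 0.93), and Csf1r to Galnt16, Clec10a and Larp6 (r = 0.92 to 0.90). Adgre1 was closest to Clec10a (r = 0.91), a lectin of macrophages and dendritic cells, then to Slc8b1 (r = 0.85) and Csf1r (r = 0.83). C1qb was closest to C1qc, Cd84 and Fcer1g (r = 0.85 to 0.82), and C1qc to Themis2, Spi1 and C1qb (r = 0.86 to 0.85). C1qa was closest to Rabac1, Sparc and Fermt3 (r = 0.89 to 0.88). Lyz1 was closest to the MHC class II gene H2-Aa, Ly86 and Lpl (r = 0.85 to 0.79). Lyz2 was closest to Selplg, Tbc1d9 and Fli1 (r = 0.83 to 0.80), Ccr2 to 2510009E07Rik, Lilr4b and Prkcd (r = 0.83 to 0.79), and Trem2 to Rab29, Tbxas1 and AA467197 (r = 0.83 to 0.81). Rank correlations were well under r in some pairs, such as C1qa with Rabac1 (rho = 0.63), Lyz1 with Lpl (0.54) and Trem2 with Tbxas1 (0.61). In others they were near r, such as Cd163 with Cd209d (rho = 0.90).

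With all arrays the 16 probes were all lower on average in WT day 14 than in control, with adjusted p-values from 0.157 to 0.543 over all named probes (limma), and 44.9% of the 14836 named probes were lower. Without the 3 host-poor arrays 11 of the 16 were lower and 5 were higher (the dimmest Adgre1 probe, the dimmer Csf1r probe and the probes of Trem2, C1qa and C1qc), and 52.2% of all named probes were lower. In that fit WT day 14 minus control was -0.32 ± 0.19 (SE) for the brightest Lyz1 probe. For the dimmer Lyz1 probes it was -1.29 ± 0.71 and -1.56 ± 0.765. The brighter Lyz2 probe had -0.20 ± 0.35 and the dimmer -0.645 ± 0.53. The dimmest Adgre1 probe and the dimmer Csf1r probe went the other way, at 0.24 ± 0.90 and 0.11 ± 0.83. Each of the 16 probes had an adjusted p of 0.999 (limma). Probes of the same gene did not always run together. The dimmest Adgre1 probe correlated with the brightest at r = 0.33 (permutation p = 0.05, adjusted p = 0.06) and the dimmer Csf1r probe with the brighter at r = 0.55 (permutation p = 0.0008, adjusted p = 0.001), over 35 arrays and adjusted over 10 pairs chosen after their values were seen. The 2 dim probes, of different genes, correlated with each other at r = 0.97 (rho = 0.93, permutation p = 1e-05, adjusted p = 3e-05), and at r = 0.95 without the 2 arrays farthest from the median. The dimmest Adgre1 probe was at 4.60 on WT day 4 array 1, 4.45 on shTGFb day 4 array 6, 4.75 on shVEGF day 4 array 5 and 4.90 on control array 6. The brightest Adgre1 probe was between 8.68 and 9.66 on those 4 arrays. C1qa was low on the same 4, at 8.86, 8.01, 6.67 and 8.87 in that order. The same Adgre1 probe was also dim on shTGFb day 14 array 3 (6.01) and control array 2 (6.14), where C1qa, at 10.93 and 10.22, was above its median of 10.15. Conversely, C1qa was low, at 8.06, on array 2 of shVEGF day 14, and that Adgre1 probe was at least 6.66 throughout that group. Over the 35 arrays C1qa correlated with the dimmest Adgre1 probe at r = 0.64 (rho = 0.46, permutation p = 0.0002, adjusted p = 0.0004). That Adgre1 probe also moved with the number of probes detected on the array (r = 0.68, permutation p = 2e-05, adjusted p = 5e-05). For C1qa and the number of probes detected r was 0.45 (permutation p = 0.01, adjusted p = 0.01) and rho was 0.02 (permutation p = 0.9, adjusted p = 0.9). Without the 2 arrays farthest from the C1qa median r was -0.10, so this relation rests on those arrays.

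**Figure D5:**
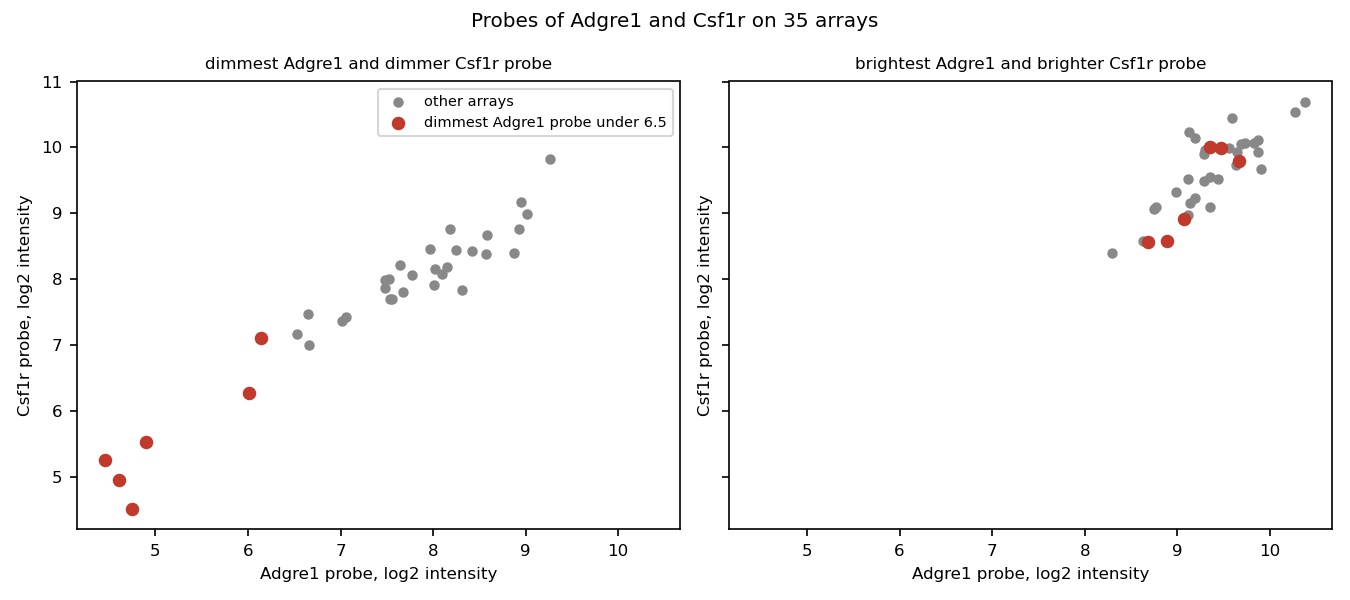
Dimmest Adgre1 probe against dimmer Csf1r probe (left) and brightest Adgre1 probe against brighter Csf1r probe (right), as log2 intensity on the 35 arrays without the host-poor ones; red points are the arrays on which the dimmest Adgre1 probe was under 6.5. The red points form the lower end of the left panel, from 4.45 to 6.14 on the Adgre1 axis, and lie among the other arrays in the right panel.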

How the data were processed

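Total RNA of mouse tissue was measured on 38 arrays in 7 labelled groups. The deposited non-normalized table gives the signal intensity of 45272 probes on a linear scale, with a detection p-value beside each; BeadStudio and limma appear without versions in the submitters' processing notes. A second deposited table, of 16247 probes, is on a log2 scale; it matched the log2 of quantile-normalized signals without background correction (largest difference 5e-14). Every column belonged to a sample.

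Here the raw signals were background-corrected with the detection p-values (neqc of limma 3.58.1, R 4.3.3, offset 16), quantile-normalized and log2-transformed. Gene names came from the platform annotation, where 14836 probes had 1 symbol, 5 several and 1406 none. The probe with the highest mean stood for a gene, which gave 9890 genes. One limma model with a mean per group gave 15 two-sided comparisons, with Benjamini-Hochberg adjustment over all genes; a call is an adjusted p under 0.05. The fit was tested on simulated data. These took their spread from the 35 arrays without the host-poor ones. The test therefore does not cover the wider spread of the WT groups in the main fit. The files held no slide or scan date.

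The 10 genes, the 3 host-poor arrays and the gene lists were chosen with earlier results of these data known. The named genes were the 10, listed partner and macrophage genes, and the 3 genes most like each of the 10; marker genes of other cell types came from further lists. Sequences are from RefSeq (GRCm38.p6). No 2 arrays held identical signals. The number of arrays limits the precision.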

Additional observations from a re-analysis of the deposited data

Results flagged for a closer look

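Within each group of 4 to 7 arrays the highest and lowest level of each of the 10 genes was set against the rest of its group, and 12 of 70 sets held a level that stood far from the others. Chance gives about 1 in 20 sets if levels are normally distributed and the sets independent. The genes share arrays and many move together, so 12 of 70 is no test against that rate. Of the 12 levels, 5 were on the host-poor array 4 of WT day 4: Lyz1 at 5.97, Lyz2 at 5.80, Trem2 at 4.36, C1qb at 4.35 and C1qc at 4.45. Array 2 of shVEGF day 14 held 4, all the lowest of its group: Trem2 at 5.17, C1qa at 8.06, C1qb at 10.88 and C1qc at 10.88. On the same array Cd163 was the highest of all arrays, at 10.85. The other 3 were C1qa at 8.01 on array 6 of shTGFb day 4, C1qc at 11.95 on array 5 of shTGFb day 14 and Cd163 at 6.92 on array 6 of control. In WT day 14 no level was far from the rest by this measure, since its 2 host-poor arrays lie near each other. The causes were not tested.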

How the results depend on the processing

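With all arrays no gene of the 10 was called in any of 15 comparisons, and this held with the deposited log2 values, median centring, a stricter detection filter, the mean of all probes, only the compared groups, array weights, the replicate block and without the 3 host-poor arrays. Leaving out 1 array gave 0 to 8 called genes for WT day 14 against control and for shVEGF day 14 against WT day 14, and 0 elsewhere; the 8 came without WT day 14 replicate 1 or 4. Without the 3 host-poor arrays, 26 of the 150 differences (10 genes in 15 comparisons) changed sign, 8 of them in the comparisons of WT with control and of the modified lines with WT at day 14: in WT day 4 minus control Lyz2 (0.0624) and Trem2 (0.26), in WT day 14 minus control Trem2 (0.51), C1qa (0.18) and C1qc (0.0286), in shTGFb day 14 minus WT day 14 Adgre1 (-0.0033) and Cd163 (-0.17), and in shVEGF day 14 minus WT day 14 Trem2 (-0.15). Leaving these arrays out before normalization, an alternative chosen after seeing the data like the test of each probe, gave 0.0614, 0.26, 0.51, 0.17, 0.0279, -0.0031, -0.17 and -0.16 in the same order. Leaving out 1 array moved WT day 4 minus control from -2.69 to 0.0624 for Lyz2 and from -0.78 to 0.26 for Trem2. Array weights turned WT day 4 minus control for Ccr2 (0.0201) and C1qa (0.0622). In WT day 4 the weight was 7.06 for array 3, which had the group's highest level of both genes. Arrays 1, 2 and 4 had weights of 0.486, 0.848 and 0.156. The cause of the turned signs was not tested. With array weights 849 genes were called in shTGFb day 4 against WT day 4, 775 in shTGFb day 4 against control, 100 in shTGFb day 14 against shTGFb day 4 and 1 in shTGFb day 14 against control, none of them among the 10. The median of the 10 genes in WT day 14 minus control was -2.21 in the main setting, -1.29 with the deposited log2 values and -1.02 with array weights. Arrays of different groups with the same replicate number had a mean r of 0.078, from -0.807 to 0.749, against a mean of -0.01 for other numbers. Among the same-number pairs r was over 0.1 in 49 of 102, and 4 of 38 arrays were best matched by their own number. With the replicate block 0 of the 10 genes were called in each comparison. A slide block was not run, since the files give no slide. Dim probes limit Ccr2, which was undetected on 5 of 38 arrays.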
